A study of Mus musculus with 12 samples.

Results

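The C-type lectin pattern receptors are 10 genes of the count table, *Clec4a1*, *Clec4a2*, *Clec4a3*, *Clec4d*, *Clec4e*, *Clec4n*, *Clec5a*, *Clec7a*, *Clec9a* and *Clec12a*, taken by gene symbol from 55471 rows. All 10 passed the filter on low counts that 18228 genes of the table passed. They were measured by RNA-seq in mouse dendritic cells (DCs) grown with the cytokine GM-CSF from bone marrow of female C57BL/6 mice. The study asked how PGC-1β, a co-activator of mitochondrial genes encoded by *Ppargc1b*, shapes DC metabolism and the response to interferon-β (IFN-β). There were 4 groups of 3 libraries: shControl unstimulated, sh*Ppargc1b* unstimulated, shControl with IFN-β for 6 h, and sh*Ppargc1b* with IFN-β for 6 h. All 4 groups carried a retroviral vector with a short hairpin RNA, directed at firefly luciferase in shControl and at *Ppargc1b* in sh*Ppargc1b*, and all were sorted on the human CD8 reporter of that vector. A hairpin lowers the transcript and does not delete the gene, the labels do not name the hairpin against *Ppargc1b* (the study used its hairpin 1 by default), and GM-CSF cultures hold macrophage-like as well as DC-like cells. The labels do not say whether the 3 libraries of a group came from separate mice or cultures, so p-values measure only the spread between these libraries.

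C-type lectin receptors of myeloid cells bind sugars and lipids of fungi and mycobacteria, or ligands exposed by dying cells. The activating ones signal through an immunoreceptor tyrosine-based activation motif (ITAM), either their own or that of the adaptors FcRγ (*Fcer1g*) and DAP12 (*Tyrobp*), to the kinase Syk and then through Card9 to NF-κB and cytokine genes. Others carry an inhibitory motif (ITIM) that recruits phosphatases such as SHP-1 (*Ptpn6*) and restrains DC growth and activation.

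The libraries held 49.9 to 77.7 M counts. Levels are counts-per-million values (CPM) scaled by TMM (a trimmed mean of log ratios between libraries), and errors of levels are standard deviations (SD, n = 3). The targeted gene *Ppargc1b* measured 34.5 ± 1.94 CPM with shControl against 19.4 ± 0.851 CPM with sh*Ppargc1b* before IFN-β, and 27.8 ± 3.93 against 18.7 ± 2.83 CPM after it. The DC markers *Itgax* (CD11c) and *Cd74* were abundant in every library, with *Itgax* at 901 to 1182 CPM. The macrophage markers *Csf1r* and *Cd68* were also present (1159 to 1247 and 432 to 609 CPM), *Cd209a* of monocyte-derived DCs was close to 0, and the neutrophil list, given with the other marker lists after the results, held *Ly6g* below 1 CPM and *Mmp8* at 535 to 1360.2 CPM.

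All 10 genes lie on chromosome 6 (GRCm38, GENCODE M21). *Clec5a* stands alone at 40574894 to 40585821 on the minus strand. *Clec4a1* (122921848 to 122934619), *Clec4a3* (122952515 to 122969875), *Clec4a2* (123106428 to 123143999), *Clec4n* (123229843 to 123247021) and *Clec4d* (123262111 to 123275265), all on the plus strand, and *Clec4e* (123281789 to 123289870, minus strand) form 1 cluster, in which *Clec4d* and *Clec4e* are neighbours that face each other with their 3′ ends. *Clec12a* (129342691 to 129365303, plus), *Clec9a* (129408862 to 129424763, plus) and *Clec7a* (129461591 to 129472779, minus) lie in the second cluster. Of all 100-base windows in the annotated transcripts of each gene, 2.14% of *Clec4a2* were also found in *Clec4a4*, and 2.47% of *Clec9a* in *Clec1b*, whose last exon overlaps 184 bases (5.59%) of the exonic length of *Clec9a*. The other 8 genes shared no such window with another gene.

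The sequence before the transcription start was examined because several of these neighbouring genes moved together. RefSeq start sites (GRCm38.p6) were at hand for 9 of the 10 genes, all but *Clec4n*, and the 250 bases before each start were searched on both strands, where a match at any RefSeq start of a gene counted. The motifs were the PU.1 core GAGGAA, the interferon-stimulated response element (GAAA followed by GAAA after any 2 bases), the ETS-IRF composite element (GGAA followed by GAAA after any 2 bases), the STAT element TTCNNNGAA and the κB site. The PU.1 core, the site of a myeloid transcription factor, was present before 7 of the 9 genes (*Clec5a*, *Clec4a1*, *Clec4a3*, *Clec4d*, *Clec4e*, *Clec12a* and *Clec7a*), and before 25.9% of 27025 genes counted in the same way. The windows of *Clec12a* and *Clec9a* lay wholly in annotated exon, and without them the core was present before 6 of 7 genes. The ETS-IRF composite was present before *Clec4a1* and *Clec7a* (2.68% of genes), and can share the letters GGAA with the PU.1 core, and the STAT element was found before *Clec4a2* (8.13%). Neither the interferon-stimulated response element (3.46%) nor the κB site (8.23%) was found in these windows before any of the 9 genes, which says nothing of sites farther away. The 6 sequences below are a single window for each gene with a window that overlapped at most 30 bases of annotated exon. They are shown 5′ to 3′ on the strand of the gene, with PU.1 cores and ETS-IRF composites in capitals. *Clec4a3* and *Clec7a* each had a second such window, which is not shown. The second window of *Clec4a3* (122952265 to 122952514) held no PU.1 core, and that of *Clec7a* (129472786 to 129473035) held the same motifs as the window shown.
*Clec4e*, chr6:123289872-123290121, minus strand: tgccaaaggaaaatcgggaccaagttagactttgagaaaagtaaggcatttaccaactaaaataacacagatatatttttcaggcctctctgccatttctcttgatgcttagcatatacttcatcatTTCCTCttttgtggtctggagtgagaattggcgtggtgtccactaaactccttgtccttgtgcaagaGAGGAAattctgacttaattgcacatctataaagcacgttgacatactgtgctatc
*Clec4d*, chr6:123261857-123262106, plus strand: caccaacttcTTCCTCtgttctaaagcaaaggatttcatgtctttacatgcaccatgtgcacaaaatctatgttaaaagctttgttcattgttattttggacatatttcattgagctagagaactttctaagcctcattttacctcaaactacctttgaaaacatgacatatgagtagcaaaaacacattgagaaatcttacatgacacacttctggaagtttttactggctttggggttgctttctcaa
*Clec4a1*, chr6:122921598-122921847, plus strand: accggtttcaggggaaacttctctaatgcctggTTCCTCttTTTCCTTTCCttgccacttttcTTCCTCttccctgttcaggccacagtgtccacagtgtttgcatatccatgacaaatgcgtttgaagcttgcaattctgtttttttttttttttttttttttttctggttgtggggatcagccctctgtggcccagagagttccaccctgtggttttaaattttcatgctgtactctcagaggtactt
*Clec4a3*, chr6:122952394-122952643, plus strand: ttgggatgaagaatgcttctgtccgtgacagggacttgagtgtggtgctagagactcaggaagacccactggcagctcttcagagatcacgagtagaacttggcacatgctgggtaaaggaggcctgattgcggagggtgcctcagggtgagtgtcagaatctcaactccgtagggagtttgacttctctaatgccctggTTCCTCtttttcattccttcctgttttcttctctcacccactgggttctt
*Clec5a*, chr6:40585806-40586055, minus strand: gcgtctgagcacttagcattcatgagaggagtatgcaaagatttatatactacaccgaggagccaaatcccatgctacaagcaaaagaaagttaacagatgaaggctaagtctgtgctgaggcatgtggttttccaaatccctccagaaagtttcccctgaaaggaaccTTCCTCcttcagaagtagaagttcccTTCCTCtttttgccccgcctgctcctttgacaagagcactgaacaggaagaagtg
*Clec7a*, chr6:129472780-129473029, minus strand: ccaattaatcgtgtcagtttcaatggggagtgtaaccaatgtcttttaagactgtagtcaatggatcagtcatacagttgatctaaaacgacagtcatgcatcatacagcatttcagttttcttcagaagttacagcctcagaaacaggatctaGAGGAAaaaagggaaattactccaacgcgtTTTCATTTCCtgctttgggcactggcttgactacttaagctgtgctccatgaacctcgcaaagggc

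The members covered a wide range of levels. To compare genes, CPM were divided by the length of all annotated exons in kilobases (FPKM). In unstimulated shControl cells *Clec4n* (Dectin-2, a receptor of fungal mannans) was highest at 947 ± 19.0 FPKM and *Clec7a* (Dectin-1, the receptor of β-glucan) followed at 513 ± 6.89 FPKM. They took 52.6% and 28.5% of the summed FPKM of the 10 genes. The others followed in the order *Clec4d* (132 ± 7.15), *Clec4e* (66.2 ± 4.32), *Clec4a2* (49.5 ± 3.06), *Clec5a* (29.1 ± 1.67), *Clec4a3* (24.9 ± 2.88), *Clec12a* (16.3 ± 0.459), *Clec4a1* (14.3 ± 0.985) and *Clec9a* (6.72 ± 0.615 FPKM), and no neighbours in this order overlapped in their 3 libraries. In unstimulated sh*Ppargc1b* cells *Clec5a* (44.7 ± 4.56) and *Clec4a2* (38.1 ± 2.78) overlapped, as did *Clec4a3*, *Clec12a* and *Clec4a1* at 12.4 ± 0.958, 10.3 ± 1.25 and 10.1 ± 0.504 FPKM. With IFN-β *Clec4e* stood above *Clec4d* in both hairpin groups, and *Clec5a* overlapped *Clec4a3* in shControl, as *Clec4a3* did *Clec4a2*, while *Clec4a3*, *Clec4a1* and *Clec12a* overlapped in sh*Ppargc1b* cells. The summed FPKM were 1798 ± 17.5 in unstimulated shControl, 2089 ± 111.0 in unstimulated sh*Ppargc1b*, 1793 ± 33.4 in IFN-β-treated shControl and 2098 ± 34.0 in IFN-β-treated sh*Ppargc1b* cells. FPKM depend on the length used: with the longest coding transcript, *Clec4e* was at 131 and *Clec12a* at 36.1 FPKM in unstimulated shControl, which put *Clec12a* above *Clec5a*, and the order of the other genes stayed.

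**Figure D1:**
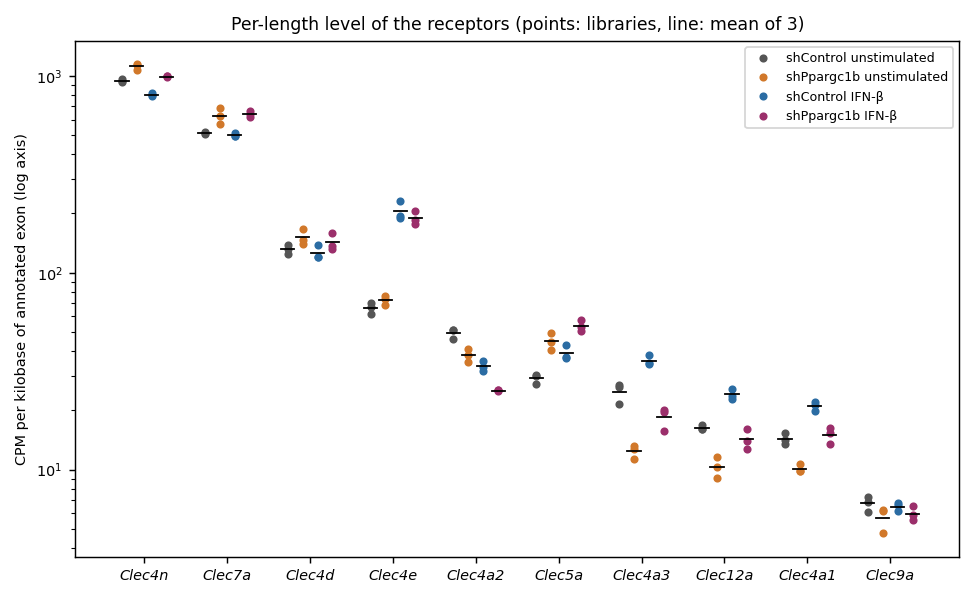
Level of each receptor in CPM per kilobase of annotated exon on a log axis, with 1 point per library and a line at the mean of 3 libraries, coloured by group. *Clec4n* and *Clec7a* lie above all others in every group, *Clec9a* is lowest, and *Clec4e* moves above *Clec4d* with IFN-β.

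To determine how these receptors change when PGC-1β is lowered, sh*Ppargc1b* was compared with shControl in each treatment. In unstimulated cells 7 of the 10 passed the test (edgeR quasi-likelihood test, adjusted p under 0.05 over all genes), with *Clec7a*, *Clec4n* and *Clec5a* raised (3) and *Clec4a1*, *Clec4a2*, *Clec4a3* and *Clec12a* lowered (4) by the knockdown. Of all genes tested 23.6% passed, 12.4% higher and 11.1% lower. With IFN-β the same 7 genes passed in the same directions, where 24.2% of all genes passed, 11.5% higher and 12.7% lower. The median log2 fold change over the 10 members was -0.05 without and -0.12 with IFN-β, against -0.0049 and -0.01 over all genes. The 3 receptors that rose signal through an ITAM, as do *Clec4d* and *Clec4e*, which did not pass in either treatment. Of the 4 that fell, *Clec4a2* and *Clec12a* carry an ITIM, and *Clec4a1* and *Clec4a3* do not. In bulk RNA, fewer cells of a type and less RNA per cell cannot be told apart.

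**Figure D2:**
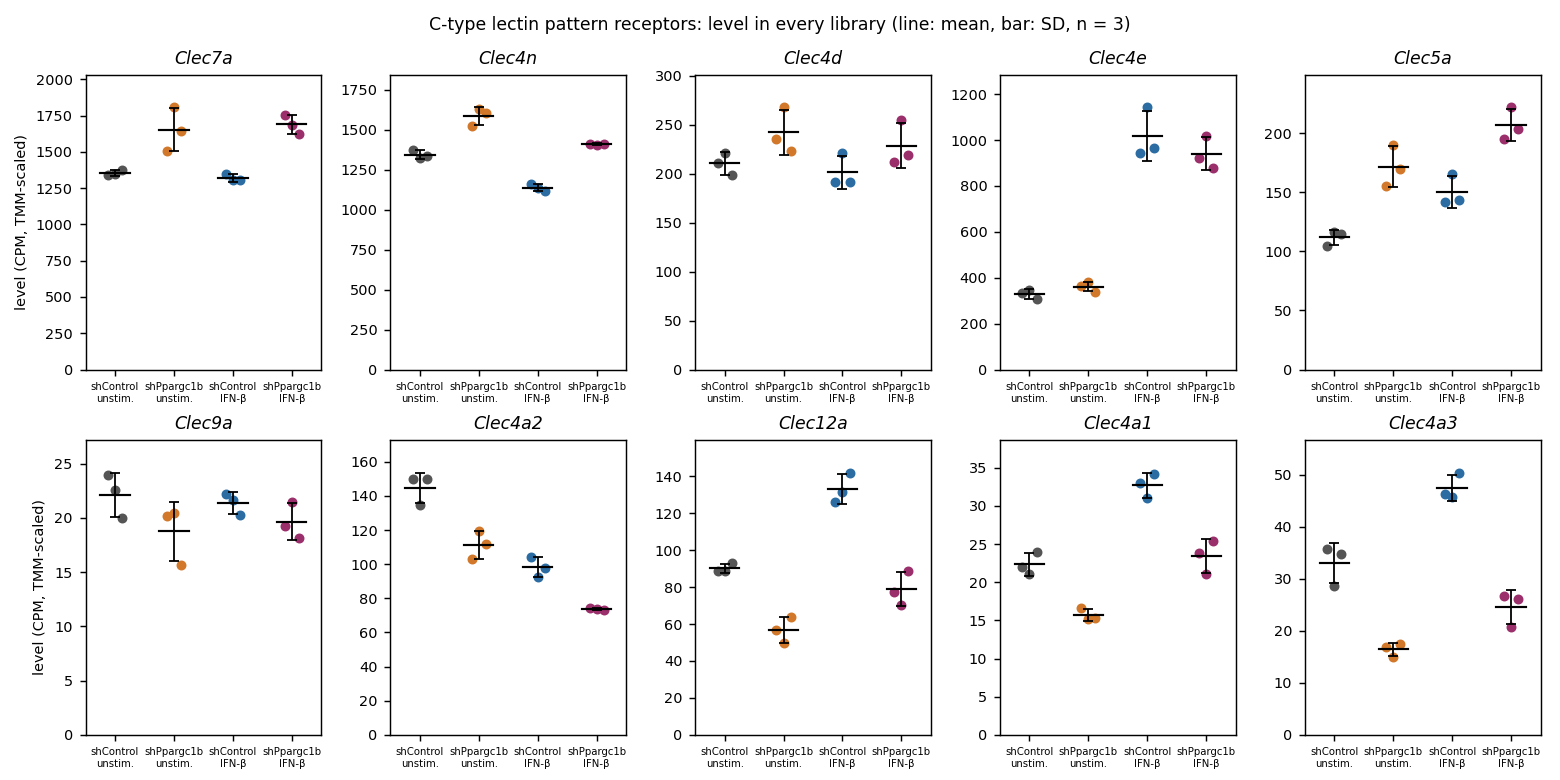
Level of each receptor in CPM in all 12 libraries, grouped by hairpin and treatment, with a line at the mean and a bar for the SD of 3 libraries, on axes that start at 0. The sh*Ppargc1b* libraries lie above the shControl libraries of the same treatment for *Clec7a*, *Clec4n* and *Clec5a*, and below them for *Clec4a1*, *Clec4a2*, *Clec4a3* and *Clec12a*.

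*Clec5a* (MDL-1), which pairs with DAP12, showed the largest rise among the members. In unstimulated cells it was at 105, 117 and 114 CPM with shControl and 155, 190.1 and 169.9 CPM with sh*Ppargc1b*, and with IFN-β at 142, 165 and 143 CPM with shControl and 195, 222 and 204 CPM with sh*Ppargc1b*. The sh*Ppargc1b* libraries were above all shControl libraries of the same treatment. On the log2 scale *Clec5a* differed by 0.62 ± 0.08 (standard error, SE) before IFN-β (adjusted p = 2.57e-05) and by 0.46 ± 0.08 after it (adjusted p = 0.000354), or 1.54-fold and 1.38-fold.

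*Clec7a*, which carries its own ITAM-like motif, was at 1340.2, 1346 and 1374 CPM with shControl and 1508, 1807 and 1644 CPM with sh*Ppargc1b* in unstimulated libraries. With IFN-β it was at 1350.4, 1306 and 1304 CPM with shControl and 1755, 1686 and 1625 CPM with sh*Ppargc1b*. The groups did not overlap in either treatment, and the unstimulated sh*Ppargc1b* libraries were the most spread (1653 ± 149.7 CPM). The knockdown effect on *Clec7a* was 0.29 ± 0.05 on the log2 scale (adjusted p = 0.00116) before IFN-β and 0.36 ± 0.05 (adjusted p = 0.00021) after it.

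*Clec4n*, which pairs with FcRγ, was at 1374, 1322 and 1337 CPM with shControl and 1524, 1629 and 1606 CPM with sh*Ppargc1b* in unstimulated libraries, and with IFN-β at 1161, 1136 and 1117 CPM with shControl and 1413, 1404 and 1412 CPM with sh*Ppargc1b*. It was higher in every sh*Ppargc1b* library than in any shControl library of its treatment. On the log2 scale *Clec4n* differed by 0.24 ± 0.04 before IFN-β (adjusted p = 0.000255) and by 0.31 ± 0.04 after it (adjusted p = 2.85e-05). The rise was thus small against the level, 1.18-fold and 1.24-fold.

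The other FcRγ-coupled pair, *Clec4d* (MCL) and *Clec4e* (Mincle), which bind the mycobacterial cord factor and associate with each other, did not pass the test in either treatment. *Clec4d* was at 211, 222 and 199 CPM with shControl and 236, 268 and 223 CPM with sh*Ppargc1b* in unstimulated libraries. These did not overlap, whereas with IFN-β (192, 221 and 192 against 212, 255 and 219 CPM) they did. The difference on the log2 scale was 0.20 ± 0.08 (adjusted p = 0.0797, 95% confidence interval 0.03 to 0.37) and 0.18 ± 0.08 (adjusted p = 0.114). The first of these passed in 5 of 18 alternative analyses, with an adjusted p of 1.26e-04 to 0.345 over all 18; 2 of the 5 left out sh*Ppargc1b* IFN-β replicate 2 (0.0373) or sh*Ppargc1b* unstimulated replicate 3 (0.0434). *Clec4e* was at 333, 348 and 305 CPM with shControl and 364, 379.7 and 339 CPM with sh*Ppargc1b* in unstimulated libraries, which overlapped, with a log2 fold change of 0.13 ± 0.08 (adjusted p = 0.229, interval -0.03 to 0.29). With IFN-β, where its levels also overlapped, the sign was opposite (-0.11 ± 0.07, adjusted p = 0.313, interval -0.27 to 0.05). *Clec4e* passed in 2 of 18 alternatives without IFN-β (adjusted p of 0.00928 to 0.539 over all 18) and in 1 of 18 with it (0.0473 to 0.773).

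Among the receptors that fell, *Clec4a3* (DCIR3), a member of the DCIR family without an ITIM, changed most. It was at 35.7, 28.7 and 34.8 CPM with shControl and 16.9, 15.0 and 17.5 CPM with sh*Ppargc1b* in unstimulated libraries, and with IFN-β at 46.4, 45.7 and 50.4 CPM with shControl and 26.7, 20.7 and 26.1 CPM with sh*Ppargc1b*. All sh*Ppargc1b* libraries with IFN-β stayed below all unstimulated shControl libraries. The knockdown effect on *Clec4a3* was -1.004 ± 0.10 on the log2 scale (adjusted p = 3.15e-06) before IFN-β and -0.96 ± 0.10 (adjusted p = 5.28e-06) after it, or 0.499 and 0.516 of control.

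*Clec12a* (MICL), an ITIM receptor of uric acid crystals released by dead cells, was at 88.9, 88.6 and 93.1 CPM with shControl and 56.9, 50.0 and 63.8 CPM with sh*Ppargc1b* in unstimulated libraries. With IFN-β it was at 126, 131 and 142 CPM with shControl and 77.4, 70.6 and 88.7 CPM with sh*Ppargc1b*. The groups were well apart in both treatments. On the log2 scale *Clec12a* differed by -0.66 ± 0.08 before IFN-β (adjusted p = 3.44e-05) and by -0.76 ± 0.08 after it (adjusted p = 1.15e-05).

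*Clec4a1* (DCIR4), also without an ITIM, was at 22.0, 21.0 and 24.0 CPM with shControl and 16.6, 15.2 and 15.3 CPM with sh*Ppargc1b* in unstimulated libraries, and with IFN-β at 33.0, 31.0 and 34.2 CPM with shControl and 23.8, 21.1 and 25.5 CPM with sh*Ppargc1b*. The groups did not overlap within either treatment, while IFN-β-treated sh*Ppargc1b* libraries overlapped unstimulated shControl ones. The knockdown effect on *Clec4a1* was -0.51 ± 0.07 on the log2 scale (adjusted p = 0.000126) before IFN-β and -0.48 ± 0.07 (adjusted p = 0.000192) after it.

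*Clec4a2* (DCIR), the ITIM receptor that limits DC expansion, was at 149.9, 134 and 149.8 CPM with shControl and 103, 119 and 112 CPM with sh*Ppargc1b* in unstimulated libraries. With IFN-β it was at 104, 92.6 and 97.6 CPM with shControl and 74.4, 73.9 and 72.9 CPM with sh*Ppargc1b* and the latter are the lowest 3 values of the 12 libraries. On the log2 scale *Clec4a2* differed by -0.38 ± 0.06 before IFN-β (adjusted p = 0.000194) and by -0.41 ± 0.06 after it (adjusted p = 0.00011). Levels fell to 0.770 and 0.751 of control. For each of these 7 receptors and both treatments the exact two-sided permutation p of the 3 libraries against 3 was 0.1, the smallest this design allows.

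*Clec9a* (DNGR-1), the receptor of actin filaments exposed by dead cells that marks type 1 conventional DCs, was the lowest member on the FPKM scale. It was at 23.9, 22.5 and 19.9 CPM with shControl and 20.2, 20.4 and 15.6 CPM with sh*Ppargc1b* in unstimulated libraries, and with IFN-β at 22.2, 21.6 and 20.2 CPM with shControl and 19.3, 21.5 and 18.2 CPM with sh*Ppargc1b*. The groups overlapped in both treatments. The difference on the log2 scale was -0.24 ± 0.10 (adjusted p = 0.0934, interval -0.45 to -0.03) and -0.12 ± 0.10 (adjusted p = 0.437, interval -0.33 to 0.09). The first of these passed in 2 of 18 alternatives (adjusted p of 0.00971 to 0.396 over all 18). Of the type 1 DC markers, *Xcr1* was at 0.0414 to 0.333 CPM, *Cadm1* at 0.511 to 0.886 CPM and *Itgae* at 0.603 to 1.86 CPM over the 12 libraries, whereas *Irf8* and *Batf3* reached 90.2 to 209 and 8.67 to 13.3 CPM. Of the 10 genes of this list, *Naaa* and *Tlr3* fell and *Irf8* rose with the knockdown in both treatments: *Naaa* was at 419 ± 21.1 CPM with shControl and 243 ± 6.37 CPM with sh*Ppargc1b*, and 418 ± 19.3 and 249.7 ± 8.66 CPM with IFN-β. *Tlr3* was at 17.9 ± 1.76 and 12.8 ± 0.799 CPM before and 277 ± 23.6 and 197 ± 10.1 CPM after IFN-β, and *Irf8* at 94.2 ± 4.21 and 122 ± 5.82 CPM before and 135 ± 5.46 and 196 ± 15.2 CPM after it. The summed level of the list was 746 to 779.5 CPM in shControl against 577 to 611 CPM in sh*Ppargc1b* libraries and, with IFN-β, 1051 to 1100.4 against 842 to 900.4 CPM, and the part of this shift in the values of *Clec9a* was not tested. The overlapping neighbour *Clec1b* was at 33.0 to 46.3 CPM, and whether reads of its transcripts add to *Clec9a* was not tested.

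**Figure D3:**
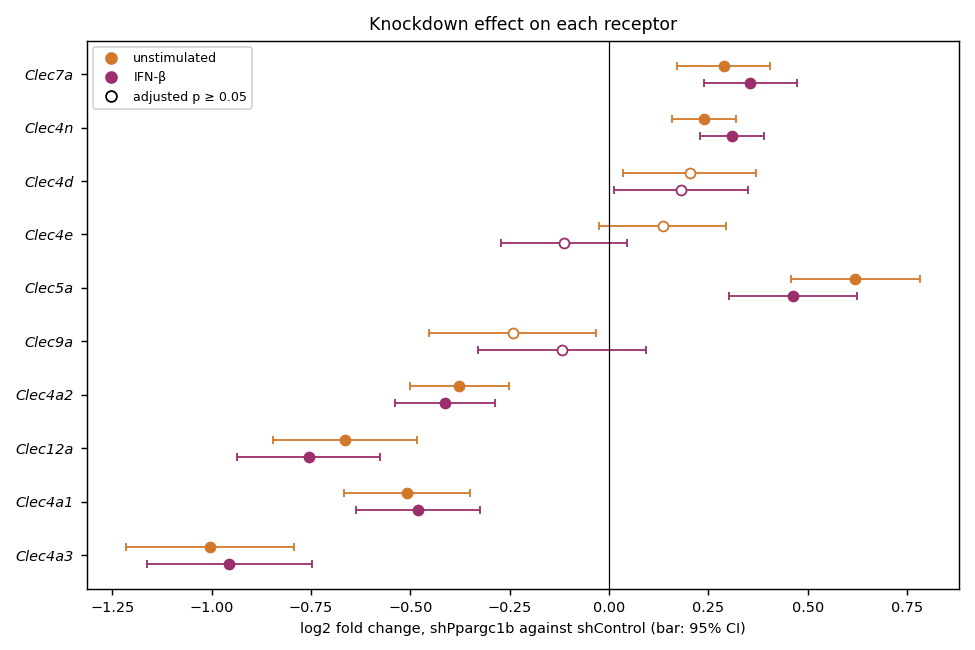
Log2 fold change of each receptor in sh*Ppargc1b* against shControl cells, unstimulated and with IFN-β, with 95% confidence intervals from the edgeR model. Filled points passed an adjusted p of 0.05: *Clec7a*, *Clec4n* and *Clec5a* lie to the right of 0 and *Clec4a2*, *Clec12a*, *Clec4a1* and *Clec4a3* to the left in both treatments.

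The IFN-β response was examined in each hairpin group. In shControl cells 7 of 10 passed the test, 5 higher (*Clec4e*, *Clec12a*, *Clec4a1*, *Clec4a3* and *Clec5a*) and 2 lower (*Clec4a2* and *Clec4n*), where 48.2% of all genes passed, 23.7% higher and 24.6% lower. The same 7 passed under sh*Ppargc1b* in the same directions, where 42.6% of all genes passed, 21.4% higher and 21.2% lower. The median log2 fold change over the members was 0.19 and 0.17, against -0.03 and -0.02 over all genes. Scaling by library totals in place of TMM shifted the median of all genes to -0.27 and -0.22, so changes here are relative to TMM: the share of passing genes that were higher was then 23.9% and 23.7%, against 49.0% and 50.2%.

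*Clec4e* changed most. It went from 333, 348 and 305 CPM to 943, 1142 and 963 CPM in shControl, and from 364, 379.7 and 339 to 923, 1018 and 877 CPM in sh*Ppargc1b* libraries. The treated and untreated libraries were far apart in both hairpin groups. The log2 fold change with IFN-β was 1.63 ± 0.08 (adjusted p = 6.52e-11) and 1.38 ± 0.08 (adjusted p = 6.37e-10), or 3.09-fold and 2.60-fold. Its partner *Clec4d* did not pass, with log2 fold changes of -0.06 (interval -0.23 to 0.11) and -0.08 (interval -0.25 to 0.08), whereas with library totals it was lower in both (-0.30 and -0.29, adjusted p = 0.00257 and 0.00427). The ratio of *Clec4e* to *Clec4d* on the FPKM scale was 0.502 ± 0.00683 in unstimulated and 1.62 ± 0.0410 in IFN-β-treated shControl libraries, and 0.481 ± 0.0215 and 1.33 ± 0.0647 in sh*Ppargc1b* libraries, ranges that do not overlap between treatments.

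The 3 members that fell together with the knockdown and rose together with IFN-β were *Clec12a*, *Clec4a1* and *Clec4a3*. *Clec12a* rose by 0.56 ± 0.08 on the log2 scale under shControl (adjusted p = 4.02e-05) and 0.47 ± 0.08 under sh*Ppargc1b* (adjusted p = 0.000315). *Clec4a1* rose by 0.55 and 0.58 (adjusted p = 1.31e-05 and 1.32e-05), and *Clec4a3* by 0.52 and 0.57 (adjusted p = 0.000281 and 0.000235). *Clec4a2*, from the same cluster and also lower in the knockdown, fell by 0.56 and 0.60 on the log2 scale (adjusted p = 9.61e-07 and 7.15e-07). Of these 3 members of the DCIR family, the knockdown lowered all and IFN-β raised 2 and lowered 1.

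The ITAM receptors did not all move in the same direction with IFN-β. *Clec5a* rose by 0.42 ± 0.08 under shControl (adjusted p = 0.000248) and 0.27 ± 0.08 under sh*Ppargc1b* (adjusted p = 0.00947), a call that was lost with library totals (0.06, adjusted p = 0.487). *Clec4n* fell by 0.24 and 0.17 on the log2 scale (adjusted p = 7.54e-05 and 0.00187). *Clec7a* did not pass in shControl (-0.04, interval -0.15 to 0.08) or sh*Ppargc1b* cells (0.03, interval -0.09 to 0.15), and with library totals it was lower in both (-0.28 and -0.17, adjusted p = 4.47e-04 and 0.0150). *Clec9a* changed by -0.05 (interval -0.26 to 0.16) and 0.07 (interval -0.14 to 0.28), with neither past the threshold.

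**Figure D4:**
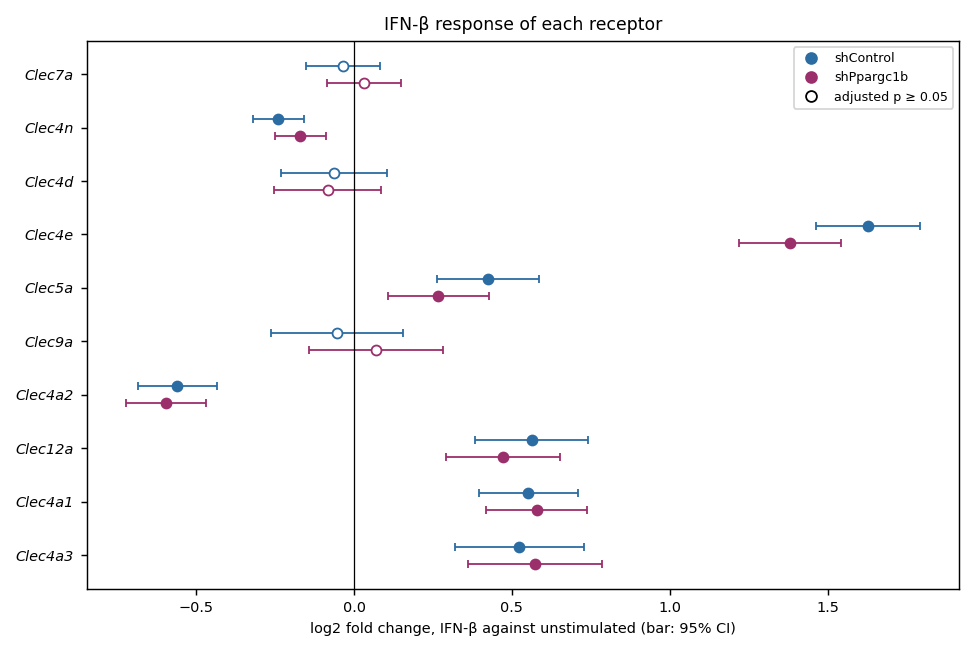
Log2 fold change of each receptor with IFN-β against unstimulated cells in shControl and sh*Ppargc1b* cells, with 95% confidence intervals and filled points where the adjusted p was under 0.05. *Clec4e* lies farthest to the right (1.63 and 1.38), *Clec12a*, *Clec4a1*, *Clec4a3* and *Clec5a* lie to the right of 0, and *Clec4a2* and *Clec4n* to the left.

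The knockdown effect was next compared between treatments, as the difference of its log2 values with and without IFN-β (the interaction). It passed for 0 of the 10 receptors in edgeR, 1 at an unadjusted p under 0.05, and 0 in DESeq2, where 0.73% of all genes passed in edgeR. The 1 receptor was *Clec4e*, with an interaction of -0.25 ± 0.11 (adjusted p = 0.42, interval -0.47 to -0.02), which passed in 2 of 17 alternatives (0.00868 without the filter on low counts and 0.0303 with a run block, 0.00868 to 0.736 over all 17). For the other 9 it ranged from -0.16 (*Clec5a*) to 0.12 (*Clec9a*), and the intervals reached from -0.39 at the lowest to 0.42 at the highest. *Clec4e* with IFN-β was at 1016 ± 109.7 CPM in shControl and 939.7 ± 71.9 CPM in sh*Ppargc1b* libraries, and these overlapped.

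The genes through which these receptors signal were examined by lists written by hand. For comparison, 12.4% of all genes passed higher and 11.1% lower with the knockdown in unstimulated cells, and 11.5% and 12.7% with IFN-β. For the IFN-β response these shares were 23.7% and 24.6% in shControl, and 21.4% and 21.2% in sh*Ppargc1b* cells. Of 16 adaptors and proximal kinases, 1 rose and 6 fell in unstimulated sh*Ppargc1b* cells, and 1 rose and 7 fell with IFN-β. *Fcer1g*, the adaptor of *Clec4n*, *Clec4d* and *Clec4e*, was at 440.4 ± 20.2 and 452 ± 9.34 CPM in unstimulated shControl and sh*Ppargc1b* cells, a log2 fold change of 0.04 ± 0.05 (adjusted p = 0.686), and *Tyrobp*, the adaptor of *Clec5a*, was at 346 ± 20.3 and 344 ± 8.39 CPM (-0.01 ± 0.05, adjusted p = 0.904). *Syk* was lower by a small amount (-0.11 and -0.12, adjusted p = 0.0465 and 0.0304). The largest changes were in the lipid kinase *Pik3cd* (-0.53 and -0.34), the phospholipase *Plcg2* (-0.38 and -0.32) and the Src-family kinases *Src* (0.43 and 0.37) and *Fgr* (-0.21 and -0.29). *Btk* fell without IFN-β (-0.21, adjusted p = 0.00952) and was at -0.13 with it (adjusted p = 0.0807). IFN-β raised 9 of the 16 in both hairpin groups, among them *Fcer1g* by 0.47 and 0.36, and lowered 1 in shControl and 2 in sh*Ppargc1b* cells.

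In the Card9 and NF-κB arm, 6 of 20 genes rose and 2 fell in unstimulated sh*Ppargc1b* cells, and 5 rose and 2 fell with IFN-β. Of all genes, 12.4% rose and 11.1% fell without IFN-β, and 11.5% rose and 12.7% fell with it. *Card9* itself fell by 0.35 ± 0.08 on the log2 scale before IFN-β (adjusted p = 0.00294), and after IFN-β its difference of -0.19 missed the threshold (adjusted p = 0.0892). Its partner *Malt1* rose by 0.44 and 0.21. The kinase *Map3k14* rose by 0.46 and 0.58, *Relb* by 0.42 and 0.44, and *Rel* by 0.40 and 0.22. IFN-β raised 12 and lowered 5 of the 20 in shControl, and raised 11 and lowered 5 in sh*Ppargc1b* cells, with *Card9* lower in both (-0.51 and -0.35). Among 7 phosphatases and other negative regulators, 1 rose and 1 fell without IFN-β, which is near the shares of all genes, and 2 rose and 4 fell with it. With library totals the 2 calls without IFN-β became 4. The ubiquitin ligase *Cblb* rose by 0.37 and 0.28 and the lipid phosphatase SHIP-1 (*Inpp5d*) was lower (-0.14 and -0.18). *Ptpn6* was lower with IFN-β (-0.28, adjusted p = 0.00493) and at -0.18 without it (adjusted p = 0.0586), *Dok2* likewise (-0.25 and -0.22, adjusted p = 0.0313 and 0.0537), and *Dok1* rose with IFN-β (0.31, adjusted p = 0.00178). IFN-β raised 5 and lowered 2 of the 7 in shControl, and raised 4 and lowered 2 in sh*Ppargc1b* cells.

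Of 18 cytokine and early response genes below the receptors, 15 were tested, and 8 rose in unstimulated sh*Ppargc1b* cells and 7 with IFN-β (12.4% and 11.5% of all genes). *Tnf* measured 84.7 ± 1.94 CPM with shControl and 152 ± 10.1 CPM with sh*Ppargc1b* (0.85 ± 0.07 on the log2 scale, adjusted p = 5.36e-07), and after IFN-β 139 ± 11.2 and 181 ± 16.7 CPM (0.39 ± 0.07, adjusted p = 0.000681). Its interaction was -0.46 ± 0.10 (adjusted p = 0.0408), the only one of the 15 past the threshold, and it was lost with library totals. The chemokine *Ccl3* rose by 0.93 and 0.67, *Ccl4* by 0.99 and 0.58, and the early response gene *Egr1* by 0.65 and 0.39. *Il12a* was at 0.0175 to 0.753 CPM over all libraries and was raised by the knockdown in IFN-β-treated cells (1.80 ± 0.44, adjusted p = 0.00725), and the difference without IFN-β did not pass (1.61 ± 0.63, adjusted p = 0.0815). IFN-β raised 9 in shControl, and raised 7 and lowered 2 in sh*Ppargc1b* cells. Whether these levels follow from signals of the receptors was not tested.

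**Figure D5:**
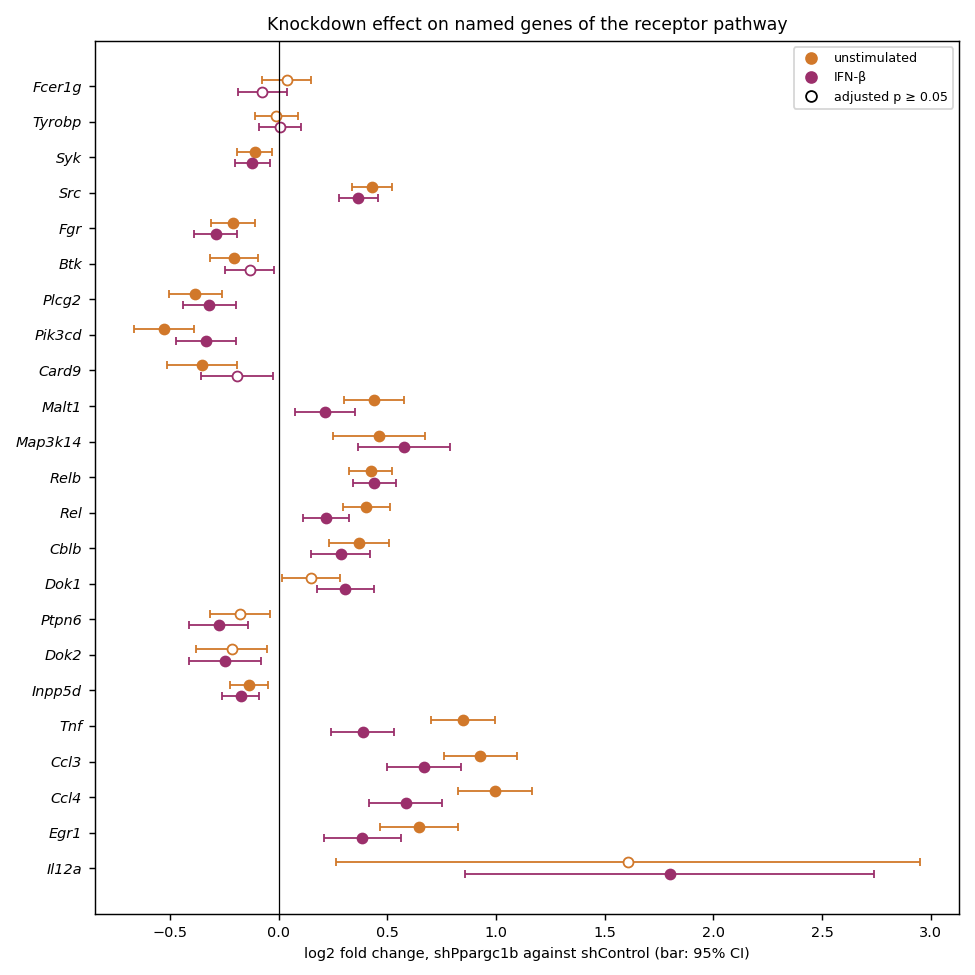
Log2 fold change of 23 named genes below the receptors in sh*Ppargc1b* against shControl cells, unstimulated and with IFN-β, with 95% confidence intervals. *Fcer1g* and *Tyrobp* lie near 0, *Pik3cd* and *Plcg2* to the left, and *Il12a*, with the widest intervals, farthest to the right, then *Tnf*, *Ccl3* and *Ccl4* without IFN-β, with open points where the adjusted p was 0.05 or more.

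Of 33 other C-type lectin genes 23 were tested, and 6 rose and 6 fell in unstimulated sh*Ppargc1b* cells, and 4 rose and 6 fell with IFN-β. The shares of all genes were 12.4% and 11.1%, and 11.5% and 12.7% with IFN-β. The mannose receptor *Mrc1*, also a macrophage marker, changed most (307 ± 34.7 CPM with shControl and 107 ± 12.3 CPM with sh*Ppargc1b*, -1.51 ± 0.11 on the log2 scale, adjusted p = 1.99e-07, and -1.42 ± 0.11 with IFN-β). Thrombomodulin (*Thbd*) fell without IFN-β (-1.39, adjusted p = 0.000162), *Cd93* in both treatments (-0.87 and -0.60), and the scavenger receptor *Colec12* rose in both (0.96 and 1.11). *Pla2r1* was lower with IFN-β (-0.88, adjusted p = 0.0294). The interaction passed for 1 of the 23, *Cd69* (-0.86, adjusted p = 0.00905). IFN-β raised 7 and lowered 6 in shControl, where 23.7% of all genes were raised and 24.6% lowered. It raised 6 and lowered 3 in sh*Ppargc1b* cells, where these shares were 21.4% and 21.2%.

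Markers of other cell types were counted in the same way for the knockdown. Of all genes tested, 23.6% passed without IFN-β (12.4% higher, 11.1% lower) and 24.2% with it (11.5% higher, 12.7% lower). Counts below such as 3 of 12 or 1 of 4 lie near the share that passed. Of 12 macrophage markers 4 fell without and 6 with IFN-β, and their summed level was 3002 to 3181 CPM in unstimulated shControl and 2678 to 2802 CPM in unstimulated sh*Ppargc1b* libraries, and 3769 to 4035 and 3233 to 3449.5 CPM with IFN-β. Of these 12 markers 0 rose in either treatment. *Mrc1*, given above, was lower, and *Csf1r* was at -0.02 and -0.05 (adjusted p = 0.804 and 0.324). Of 10 monocyte markers 3 rose and 3 fell without and 2 rose and 3 fell with IFN-β. Their summed level overlapped between the hairpin groups, at 2642 to 3063 against 2545 to 2962 CPM and, with IFN-β, 2821 to 3139 against 2726 to 3275 CPM. Of 12 neutrophil markers 3 rose in each treatment (*Mmp8*, *S100a8* and *Cxcr2*), the sum was 707 to 939 against 1166 to 1462 CPM and 597 to 770.4 against 1024 to 1257 CPM, and *Ly6g*, *Mpo*, *Elane* and *Retnlg* were each at most 1.10 CPM. Of 10 tested general DC markers 5 rose without and 6 with IFN-β, led by *Ccr7* (1.32 and 1.36) and *Fscn1* (0.99 and 1.30), and the sum was 4538 to 5356 against 5284 to 6082 CPM and 4944 to 5961 against 5926 to 6849 CPM. For CCR7 protein, measured by flow cytometry, the paper reports the opposite direction, generally lower levels in PGC-1β-deficient DCs. Of 9 tested type 1 DC markers 1 rose and 2 fell in each treatment. Mast cell or basophil markers (3 and 2 of 8 rose), lymphocyte markers (1 of 4 in each) and plasmacytoid DC markers (1 of 4 without IFN-β) summed to at most 27.9, 3.26 and 220.0 CPM, and the 7 eosinophil markers to 28.4 to 75.8 CPM. The part of these shifts in the receptor changes was not tested.

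The genes whose pattern was most like that of each receptor over the 12 libraries were found by Pearson's r of log2 CPM, which describes these libraries and carries the treatment and knockdown differences that all share. For *Clec4a3* they were *Sdhb* (r = 0.993), *Sulf2* (0.989) and *Etfa* (0.988), of which *Sdhb* encodes a subunit of respiratory complex II and *Etfa* one of the electron transfer flavoprotein. For *Clec4a2* the first was *Pdha1* (0.985), a subunit of pyruvate dehydrogenase, then *Septin11* (0.981) and *Vps13c* (0.979). *Clec4a1* was most like the ITIM receptor gene *Pirb* (0.992), then *Hacd4* (0.989) and *Frmd4b* (0.988), and *Clec12a* like *Sptbn1* (0.990), *Gnas* (0.983) and *Iqgap1* (0.982). *Clec5a* was most like *Pdia6* (0.994), *Mir22hg* (0.986) and *Ssr2* (0.985), *Clec7a* like the proton channel gene *Hvcn1* (0.967), *Spint1* (0.959) and *Serpinb8* (0.957), and *Clec4n* like *Gtpbp4* (0.989), *Zpr1* (0.985) and *Bcl2* (0.982). *Clec4e* was most like 4930453N24Rik (0.998), *Stxbp3* (0.998) and *Chpt1* (0.997), *Clec4d* like *C1galt1* (0.978), *Mesd* (0.940) and *Lrrc58* (0.937), and *Clec9a* like *Rec8* (0.910), *Taok1* (0.889) and *Gm24607* (0.878). Among the receptors themselves *Clec4a3* and *Clec12a* were most alike (r = 0.98), and *Clec4n* and *Clec12a* most opposed (r = -0.97).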

How the data were processed

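From RNA depleted of ribosomal RNA the authors obtained read pairs, which were trimmed with Trim Galore 0.6.0 and mapped with STAR 2.7.8a to mm10 (versions per the submitters' processing notes). The deposited values are raw counts per GENCODE gene, as STAR counts them, with no normalization. The strand setting of the counting is not given in the sources used here. The main test was edgeR 4.0.16 (R 4.3.3): filterByExpr (minimum count 10, total 15), TMM scaling, 1 mean per group over all 12 libraries, quasi-likelihood F-tests, and Benjamini-Hochberg adjustment over 18228 genes at 0.05. Every adjusted p comes from this test unless named otherwise. The contrasts were the knockdown in each treatment, IFN-β in each hairpin group, and their interaction. The model was tested on simulated data first. Positions and exons came from GENCODE M21 and starts from RefSeq. Alternatives were DESeq2 1.42.0, other scalings, filters and thresholds, 2-group fits, a block and leaving out each library. Genes named from the pathway lists are the at most 5 per list with the largest change among those passing a knockdown test or the interaction, plus *Fcer1g*, *Tyrobp*, *Syk* and *Card9*. The members and lists were chosen with earlier results of these data known.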

Additional observations from a re-analysis of the deposited data

How the results depend on the processing

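Each result was recomputed under up to 18 alternatives. Over the 10 receptors and 5 contrasts, 870 of these values kept their side of the threshold, 18 newly passed, 1 no longer passed and 1 newly passed with the opposite sign. Values that passed in neither analysis counted as kept even where their sign changed. Leaving out 1 library at a time gave 7 to 8 receptors past the threshold for the knockdown in unstimulated cells, 7 to 7 for the knockdown with IFN-β and for IFN-β in either hairpin group, and 0 to 0 for the interaction; the eighth was *Clec4d*. Requiring also a log2 change of 0.5 or more in size left 4 receptors for the knockdown in unstimulated cells, 2 with IFN-β, and 4 for IFN-β in sh*Ppargc1b* cells, against 7 each, because small changes were dropped by construction. The interaction passed for 1 receptor, *Clec4e*, without the filter on low counts (-0.26, adjusted p = 0.00868) and with the 3 runs of 4 consecutive library codes fitted as blocks (-0.25, adjusted p = 0.0303); the cause was not tested. With library totals in place of TMM, the IFN-β change of *Clec7a* in sh*Ppargc1b* cells reversed to -0.17 (adjusted p = 0.0150). The same scaling lost *Clec5a* in sh*Ppargc1b* cells and put *Clec4d* (-0.30, adjusted p = 0.00257) and *Clec9a* (-0.29, adjusted p = 0.0164) lower with IFN-β in shControl, and *Clec4d* in sh*Ppargc1b* cells (-0.29, adjusted p = 0.00427), where the median of all genes shifted downwards as given above. Over all genes the interaction passed for 133 genes against 36 to 271 when 1 library was left out, 448 with DESeq2, 525 without the filter, 425 with the block and 84 with library totals. For the knockdown in unstimulated cells, *Clec4d*, *Clec4e* and *Clec9a* newly passed without the filter (adjusted p = 0.000126, 0.00928 and 0.0410) and with the block (0.000907, 0.0192 and 0.00971), and with IFN-β *Clec4d* did so in both (0.00151 and 0.00205) and *Clec4e* with the block (0.0473). Libraries of the same code run had weakly correlated deviations (median r = 0.087, 0.028 to 0.146, 18 pairs). Pairs from other runs had a median of -0.044 (-0.154 to 0.056, 36 pairs). The labels do not say whether a run is a batch or a set of paired cultures, so what the block stands for cannot be told. The length used for FPKM, chosen after seeing the data, moved 21 of 40 group levels by more than their SD. Of the 10 receptors *Clec9a* and *Clec4a3* had the widest errors, and 3 libraries a group limit what a test of a small change can show.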
